A study of Mus musculus with 6 samples.

Results

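The mouse MHC genes and the genes that load their products were followed across 6 RNA-seq libraries of spinal cord samples. The set held 52 of the 35275 genes in the deposited tables: every gene whose symbol begins with H2-, together with Cd74, Ciita, B2m, Tap1, Tap2, Tapbp and Nlrc5. Of these, 31 were class I heavy chain genes, 5 were class I machinery, 10 were class II chain genes and 2 were class II machinery. The 4 others carry an H2 symbol only. They are H2-Ke6, an enzyme gene named for its place in the region, and H2-M6-ps, H2-Pa and H2-Pb, annotated as pseudogenes. Tissue was taken at postnatal day 3 from mice of the outbred ICR stock. All are labelled as spinal cord neurons kept in DMEM, a standard culture medium. IG (2 libraries) is labelled as the unprocessed control, NG (2 libraries) as mechanically injured, and TG (2 libraries) as mechanically injured and incubated with hydrogen at 75%. The labels do not tie the libraries of a group to different animals or cultures, so the spread behind each p-value may be technical.

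MHC class I molecules sit on most nucleated cells and show peptides made inside the cell to CD8 T cells. A heavy chain pairs with the light chain of B2m and receives its peptide from the Tap1 and Tap2 transporter with the help of tapasin, the product of Tapbp, and NLRC5 drives transcription of these genes. Class II molecules are made by B cells, macrophages and dendritic cells. Their alpha and beta chains assemble on the invariant chain, Cd74, exchange its last fragment for a peptide with the help of H2-DM, and depend on CIITA for transcription. Resting neurons are known for low levels of both classes.

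The proximal promoters of both classes carry short motifs that bind shared transcription factors, and 6 windows from RefSeq (GRCm38.p6) are shown because their genes cover the patterns described further on. H2-K1 and H2-Q6 were highest in NG, H2-Q10 was highest in IG, and B2m encodes the light chain. H2-Aa and H2-Ob stand for class II. Each window is the 200 bases before the RefSeq start, written 5′ to 3′. Capitals mark the letters GGGATTCCC (a kappa B site), ATTGG (the core of the Y box, bound by NF-Y), GCAAC (the core of the X box, bound by RFX) and TTTCNNTTT (a form of the interferon response element), on either strand. None of the marked motifs overlapped in these windows.

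H2-K1 (chr17:34000348-34000547, minus strand): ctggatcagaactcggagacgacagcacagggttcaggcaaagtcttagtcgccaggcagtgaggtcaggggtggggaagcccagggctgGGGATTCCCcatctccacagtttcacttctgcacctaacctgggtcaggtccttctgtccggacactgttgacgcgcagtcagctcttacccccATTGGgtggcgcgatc
H2-Q6 (chr17:35424650-35424849, plus strand): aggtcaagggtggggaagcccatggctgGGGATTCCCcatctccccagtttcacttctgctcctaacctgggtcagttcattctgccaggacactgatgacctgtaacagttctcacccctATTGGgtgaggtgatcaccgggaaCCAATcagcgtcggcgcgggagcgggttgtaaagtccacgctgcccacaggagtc
H2-Q10 (chr17:35469889-35470088, plus strand): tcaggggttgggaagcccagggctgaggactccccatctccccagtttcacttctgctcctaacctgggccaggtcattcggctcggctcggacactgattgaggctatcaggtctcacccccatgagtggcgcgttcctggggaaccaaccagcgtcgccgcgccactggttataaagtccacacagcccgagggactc
B2m (chr2:122147487-122147686, plus strand): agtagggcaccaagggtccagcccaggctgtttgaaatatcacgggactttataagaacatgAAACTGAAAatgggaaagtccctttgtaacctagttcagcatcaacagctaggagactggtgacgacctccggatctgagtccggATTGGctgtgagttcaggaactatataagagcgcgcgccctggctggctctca
H2-Aa (chr17:34287824-34288023, minus strand): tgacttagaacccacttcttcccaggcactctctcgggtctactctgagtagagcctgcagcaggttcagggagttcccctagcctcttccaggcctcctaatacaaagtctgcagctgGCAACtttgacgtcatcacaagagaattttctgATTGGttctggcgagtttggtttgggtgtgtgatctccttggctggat
H2-Ob (chr17:34238705-34238904, plus strand): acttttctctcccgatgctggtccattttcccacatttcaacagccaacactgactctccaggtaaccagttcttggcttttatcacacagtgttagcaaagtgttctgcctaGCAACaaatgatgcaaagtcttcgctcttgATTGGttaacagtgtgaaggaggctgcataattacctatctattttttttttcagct

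RefSeq promoters were found for 35 of the 52 genes, among them 23 class I chains and 8 class II chains. The kappa B letters lay in 4 of the 23 class I windows (H2-K1, H2-D1, H2-Q6 and H2-Q7), in 0 of the 8 class II windows, and in 0.222% of the windows of all 27025 promoters. The Y box letters are common, at 30% of all windows, and lay in 20 class I and 7 class II windows. The X box letters lay in 25.4% of all windows, in 2 class I windows and in 6 class II windows. An X box followed at 30 to 33 bases by a Y box was found in 0.144% of all windows, in 5 of the 8 class II windows (H2-Oa, H2-Ob, H2-Aa, H2-Eb1 and H2-Eb2) and in 0 of the 23 class I windows. The range searched equals the range of distances in these 5 windows, so their count is not a test of the spacing. In H2-Aa the X box letters start 81 bases and the Y box letters 48 bases before the gene start. The interferon element letters lay in 7.31% of all windows, in 3 class I windows and in B2m. The H2-Q10 window held none of the 4 motifs as written. The H2-K1, H2-Q6 and H2-Q10 windows each hold tttcacttc, which differs from TTTCNNTTT in its last letter only and was not counted. A window without the exact letters may therefore still hold a related form of the interferon element. The 10 bases that precede the kappa B letters in H2-K1 recur in H2-Q10, and the 9 bases after them differ from those letters by G1A and T5C, with positions counted from 1 at the 5′ end of the motif. These matches are letters only, and binding was not measured.

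Reads in genes numbered 15749447 to 23911141 per library, with 20627 to 21267 genes detected. Levels are given as normalised reads, which are reads divided by a size factor for the library, and log2 fold changes as differences of log2(normalised reads + 1) with their standard error (SE). A value written as N-fold is the ratio of the mean normalised reads of both groups, with no pseudocount, and is larger than the log2 value implies for rare genes. A gene is said to have risen or fallen where the Benjamini-Hochberg adjusted p of limma, over 24511 genes, was under 0.05. Within a group, A is the deeper library and B the shallower. Neuron markers were present in every library, with 6 genes summing to 43470 and 42220 normalised reads in IG, 27670 and 26240 in NG, and 57680 and 55520 in TG. All 6 were lower in NG than in IG and higher in TG than in NG, beside 20.4% of all genes called lower and 22.2% called higher. The same libraries held transcripts of other tissues. The sum of 5 skeletal muscle genes was 75390 and 79930 in NG against 8139 to 11400 in IG and TG, and that of 5 fibroblast genes was 76500 and 80660 in NG against 11920 to 27150 elsewhere. This makeup differs together with the labelled condition. In each comparison of MHC genes with NG, the labelled condition and the tissue makeup therefore cannot be told apart. IG and TG differed in makeup too. The fibroblast genes summed to 26140 and 27150 in IG and 11920 and 11940 in TG, and the muscle genes to 8139 and 8480 and to 11400 and 11290. The same limit holds for TG against IG. In bulk RNA, fewer cells of a type and less RNA per cell cannot be told apart. Of the 52 genes, 42 had a read in some library and were tested. The 10 at 0 reads in all 6 libraries were H2-M1, H2-M10.1, H2-M10.3, H2-M10.4, H2-M10.5, H2-M10.5-ps1, H2-M10.6, H2-Q3, H2-Pa and H2-Pb. The H2-M10 family and H2-M1 are known from vomeronasal sensory neurons.

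The group mean was highest in NG for 21 of the 28 class I genes tested and for all 12 class II genes. It was lowest in TG for 17 and 12, although fewer of these passed the test between TG and IG, as given further on. Of the 28 class I genes tested, 19 rose and 2 fell in NG relative to IG, and in TG relative to NG 21 fell and 2 rose. Of the 12 class II genes, 11 rose and 0 fell in NG relative to IG, with no gene lower at an unadjusted p under 0.05 either, and all 12 fell in TG relative to NG. Over all genes tested, limma called 40.1% for NG against IG (19.7% higher and 20.4% lower) and 45.3% for TG against NG (22.2% higher and 23.1% lower). The comparisons share the NG libraries, so they are not independent of each other. The median log2 fold change of the class I genes was 1.05 for NG against IG and -1.31 for TG against NG, and that of the class II genes was 1.43 and -2.43, beside 0 and 0 over all genes tested. With genes at 0 in a whole group set to a bound of 3 reads over that group, the class I median for NG against IG was also 1.05. In the authors' deposited table, where 31.0% of genes were called for NG against IG and 37.5% for TG against NG, 23 of the 52 genes were higher and 2 lower in NG than in IG (14.9% and 16.2% of all genes), and 26 were lower and 2 higher in TG than in NG (18.8% and 18.7%). With NG B left out, the count for NG against IG was 10 class I and 4 class II genes in either direction, and with any other library left out it was 13 to 19 and 6 to 8. Where only genes with a mean of at least 10 normalised reads were tested, 15 class I genes rose and 3 fell in NG relative to IG. On the class II side, 10 rose and 0 fell.

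**Figure D1:**
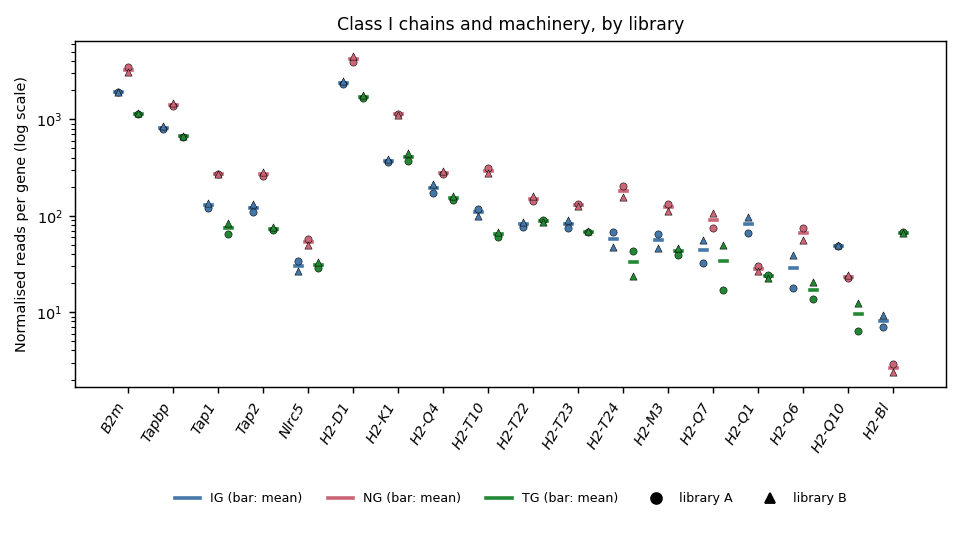
Normalised reads (log axis) of the class I machinery and of the class I chains with a mean of at least 20 over the 6 libraries. Circles are library A, triangles library B, and bars the mean of a group; H2-D1 and B2m have the most reads in every library, and H2-Bl is high in TG alone.

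All 5 genes of the class I machinery rose in NG and fell in TG relative to NG, with a median log2 fold change of 0.80 and -1.51. B2m stood at 1939 and 1941 normalised reads in IG, 3494 and 3080 in NG, and 1148 and 1151 in TG. The 3 groups did not overlap. It rose in NG by 0.76 (SE 0.08, limma adjusted p = 1.4e-04), fell in TG relative to NG by 1.51 on the log2 scale (SE 0.08, limma adjusted p = 2.6e-06), and was also lower in TG than in IG (-0.75, SE 0.08, limma adjusted p = 8.3e-04). The peptide transporter genes followed it. Tap1 stood at 121 and 137 in IG, 270 and 271 in NG, and 64.4 and 84.4 in TG. Tap2 stood at 108 and 131, 258 and 283, and 70.8 and 76.4. Both rose in NG, by 1.07 (SE 0.17, limma adjusted p = 0.00132) and 1.17 (SE 0.16, limma adjusted p = 5.1e-04), and both fell in TG relative to NG, with a log2 fold change of -1.86 each. Tapbp, the tapasin gene, stood at 787 and 848 in IG, 1364 and 1488 in NG, and 662 and 674 in TG, with its TG libraries below its IG libraries but no call between them (-0.29, SE 0.09, limma adjusted p = 0.0704). Nlrc5, the class I transactivator, was the lowest of the 5 in reads and per exonic kilobase, at 34.1 and 26.7 in IG, 57.3 and 49.4 in NG, and 29.0 and 33.1 in TG. Its IG and TG ranges overlapped, and it rose in NG by 0.80 (SE 0.26, limma adjusted p = 0.0412). An annotated gene on the opposite strand overlaps 14.1% of the exonic bases of Tap2 and 24.9% of those of Tapbp, and whether counting used strand is not given in the sources used here.

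H2-D1 and H2-K1, the classical heavy chains annotated in this genome, carried most of the class I level. Per exonic kilobase, H2-D1 (chr17:35262730-35267499) held 60.8% to 67.5% of the summed level of the 31 class I chains in a library, and H2-K1 (chr17:33996017-34000347) 9.10% to 15.4%. H2-D1 stood at 2335 and 2476 normalised reads in IG, 3954 and 4492 in NG, and 1652 and 1787 in TG, again with no overlap between groups. It rose in NG by 0.81 (SE 0.09, limma adjusted p = 1.5e-04) and was lower in TG than in NG (-1.29, SE 0.09, limma adjusted p = 7.5e-06) and than in IG (-0.48, SE 0.09, limma adjusted p = 0.0100). H2-K1 stood at 358 and 386 in IG, 1142 and 1123 in NG, and 368 and 445 in TG, so its IG and TG ranges overlapped. It rose in NG by 1.60 (SE 0.11, limma adjusted p = 1.6e-05) and fell in TG relative to NG by 1.48 (SE 0.11, limma adjusted p = 1.2e-05). Between TG and IG the difference was 0.12 (SE 0.11, limma adjusted p = 0.585). The level of H2-K1 per H2-D1, both per exonic kilobase, was accordingly 0.135 and 0.137 in IG, 0.254 and 0.220 in NG, and 0.195 and 0.219 in TG. The IG libraries lay below the other 4. With 2 libraries in a group an exact two-sided permutation test of such a ratio cannot give a p under 0.333, so none was run. B2m per H2-D1 on the same scale was 2.49 and 2.35 in IG, 2.65 and 2.06 in NG, and 2.08 and 1.93 in TG. These levels were counted against the reference haplotype of the mm10 genome, and MHC genes are known for differing between haplotypes.

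**Figure D2:**
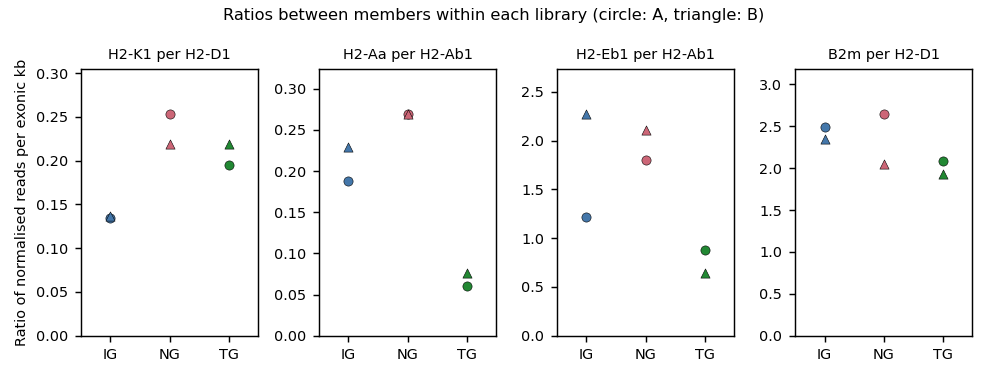
Ratios of normalised reads per exonic kilobase within each library, with 1 panel per ratio and a vertical axis from 0. Each point is a library (circle A, triangle B); H2-K1 per H2-D1 is lowest in IG at 0.135 and 0.137, and H2-Aa per H2-Ab1 is lowest in TG at 0.0608 and 0.0761.

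Of the 19 class I chains with a T or M symbol, 12 were tested, and 9 of these rose in NG and 9 fell in TG relative to NG. Over all genes, 19.7% were called higher and 23.1% lower in these comparisons. Both counts of 9 include H2-M2, H2-M9 and H2-M11, which had at most 6 reads in a library and were not called in the authors' deposited table. H2-M2 had reads in NG alone and was tested only because of them, so its calls are no support. Only H2-T10 among them was called lower in TG than in IG. H2-Bl lies among the T genes but is not in this count, and it went the other way, as given further on. H2-T24 stood at 67.4 and 47.6 in IG, 204 and 158 in NG, and 42.6 and 24.0 in TG, rising by 1.65 (SE 0.31, limma adjusted p = 0.00305) and then standing 5.43-fold lower in TG than in NG. H2-T10 stood at 118 and 98.6, 310 and 277, and 59.5 and 68.5. H2-T22, whose product is a ligand of gamma delta T cell receptors, stood at 75.9 and 87.0, 142 and 159, and 89.3 and 86.7. It rose by 0.88 (SE 0.17, limma adjusted p = 0.00325) with no difference called between TG and IG. H2-T10 and H2-T22 share 31.7% and 31.2% of their 50-base windows with each other, and an opposite-strand gene overlaps 27.1% and 29.4% of their exonic bases, so the division of reads between them is uncertain. H2-T23, which encodes the Qa-1 chain seen by NKG2A receptors, stood at 75.1 and 90.5 in IG, 133 and 127 in NG, and 67.6 and 69.6 in TG. H2-M3, which presents formylated peptides, stood at 65.0 and 46.4, 133 and 113, and 39.4 and 46.8. For both, NG was above all 4 other libraries. H2-M3 rose by 1.15 (SE 0.24, limma adjusted p = 0.00487) and H2-T23 by 0.65 (SE 0.18, limma adjusted p = 0.0190).

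The Q region was divided. H2-Q4 stood at 170 and 216 in IG, 269 and 292 in NG, and 146 and 160 in TG, and rose in NG by 0.55 (SE 0.15, limma adjusted p = 0.0193). The Qa-2 genes H2-Q6 and H2-Q7 were noisier. H2-Q6 stood at 17.8 and 39.4 in IG, 74.8 and 56.6 in NG, and 13.7 and 20.5 in TG, and H2-Q7 at 32.5 and 55.7, 73.9 and 107, and 16.9 and 50.2. H2-Q6 rose in NG by 1.26 (SE 0.41, limma adjusted p = 0.0391), and the value for H2-Q7 was 1.05 (SE 0.49, limma adjusted p = 0.128). Both fell in TG relative to NG, by 1.89 and 1.57. Between 26.5% and 36.4% of the 50-base windows of H2-Q4, H2-Q5, H2-Q6 and H2-Q7 occur in another gene, so reads may have been divided among them. An opposite-strand gene overlaps 19.1% of the exonic bases of H2-Q4, and the strand setting of the counting is not given.

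H2-Q1 and H2-Q10 had another order, with IG highest. H2-Q1 stood at 66.6 and 97.4 in IG, 30.1 and 26.5 in NG, and 24.1 and 22.8 in TG. It was lower in NG than in IG (-1.48, SE 0.28, limma adjusted p = 0.00295) and in TG than in IG (-1.74, SE 0.28, limma adjusted p = 0.00540). The IG libraries were above the other 4. H2-Q10, which encodes a secreted class I molecule known from liver and serum, stood at 48.0 and 49.9 in IG, 22.3 and 24.1 in NG, and 6.44 and 12.5 in TG. It fell in TG relative to IG by 2.31 (SE 0.36, limma adjusted p = 0.00503) and relative to NG by 1.27 (SE 0.36, limma adjusted p = 0.0202), and NG against IG stood at the threshold (-1.04, SE 0.36, limma adjusted p = 0.0502). Beside these genes, a list of 7 liver transcripts, chosen after its values were seen, summed to 18010 and 16930 normalised reads in IG, 53.5 and 56.6 in NG, and 40.2 and 37.7 in TG. Albumin, Alb, stood at 12180 and 11350 in IG and at 4.02 to 37.9 in the 4 other libraries. Its part in the level of H2-Q10 or H2-Q1 was not tested. Of the 50-base windows of H2-Q10, 19.1% occur in another gene, so its reads may have been divided.

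H2-Bl ran against the rest of the class. This gene, named for the blastocyst and annotated as a polymorphic pseudogene (chr17:36080115-36084223, minus strand), had 9 and 8 reads in IG, 3 and 2 in NG, and 84 and 58 in TG. As normalised reads these were 6.97 and 9.28, 2.92 and 2.41, and 67.6 and 66.2. The TG libraries lay above the other 4. As a ratio of means, in which the NG mean rests on 3 and 2 reads, H2-Bl was 25.1-fold higher in TG than in NG (a log2 difference of 4.22, SE 0.37, limma adjusted p = 2.8e-05) and 8.23-fold higher than in IG (2.91, SE 0.37, limma adjusted p = 0.00181). The fall from IG to NG (-1.31, SE 0.37, limma adjusted p = 0.0212) rests on these few reads. In the authors' deposited table the log2 fold changes were 4.65 for TG over NG (adjusted p = 1.7e-13), 3.03 for TG over IG (adjusted p = 5.8e-10) and -1.62 for NG over IG (adjusted p = 0.415). Of its 50-base windows, 9.6% occur in another gene, most often H2-T23, which was lower in TG than in NG. The limit of the reference haplotype, given above for H2-D1 and H2-K1, holds for H2-Bl as well. The annotated neighbours in this set did not share the pattern. H2-T22, which ends at 36042747, and H2-T-ps and H2-T10, which start at 36109234 and 36115876, all fell in TG relative to NG, by 0.77, 1.71 and 2.18. Per exonic kilobase, H2-Bl made up 3.91% and 3.48% of the class I chains in TG against 0.0532% to 0.387% in the other 4 libraries. H2-Q2 was the other class I chain that rose in TG relative to NG (2.03, SE 0.52, limma adjusted p = 0.0126). It stood at 22.5 and 9.28 in IG, 7.78 and 3.62 in NG, and 20.9 and 29.7 in TG, with IG and TG overlapping.

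The remaining class I chains were rare. H2-K2, H2-M5, H2-Q5 and H2-T-ps had means of 5.82 to 18.5 normalised reads. H2-K2 and H2-T-ps, both annotated as pseudogenes, rose in NG by 1.38 and 1.37. In the authors' deposited table H2-T-ps was called higher in NG than in IG and H2-K2 was not called. H2-M2, H2-M9 and H2-M11 had at most 6 reads in a library and counted among the genes that rose in NG. H2-M2 had 5 and 2 reads in NG and 0 elsewhere, H2-M9 had 6 and 5 in NG, 1 in IG A and 0 elsewhere, and H2-M11 had 4 and 4 in NG, 1 and 1 in IG and 0 in TG. Their log2 values depend on the pseudocount. None of the 3 was called in the authors' deposited table. H2-M10.2 and H2-T3 were not called in any comparison, as was H2-Ke6, outside both classes, at 0 to 1.94 normalised reads. H2-M6-ps, at 0 to 5.63 normalised reads, was called lower in NG than in IG and higher in TG than in NG. These calls rest on 2 and 2 reads in IG, 0 and 0 in NG, and 7 and 2 in TG, and the authors' deposited table holds neither.

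**Figure D3:**
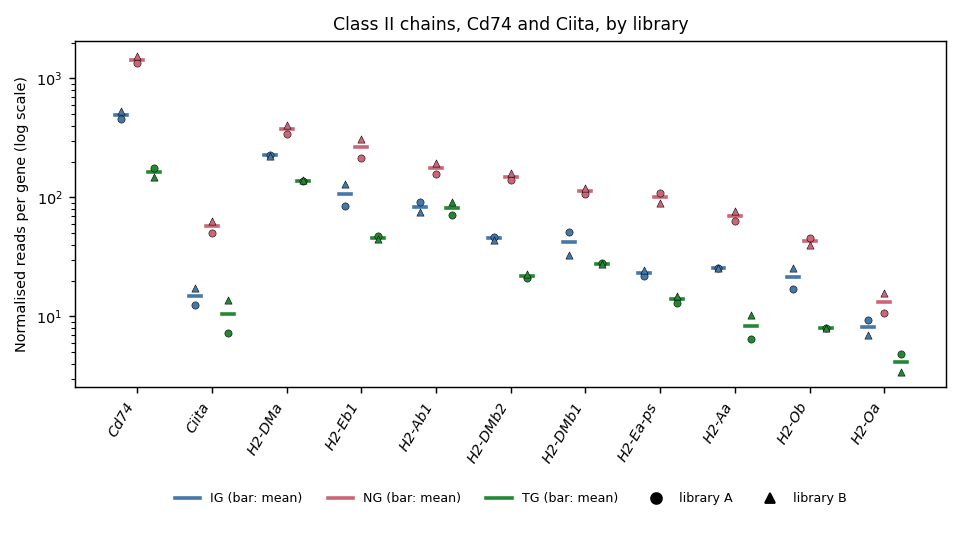
Normalised reads (log axis) of Cd74, Ciita and the class II chains with a mean of at least 7 over the 6 libraries. Circles are library A, triangles library B, and bars the mean of a group; NG is highest for every gene drawn, and TG lies below IG for every gene except H2-Ab1, where they overlap, and Ciita, where the ranges meet between 12.4 and 13.7.

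On the class II side, Cd74, the invariant chain gene on chromosome 18, was the most abundant transcript, in reads and per exonic kilobase. It stood at 453 and 528 normalised reads in IG, 1354 and 1529 in NG, and 176 and 149 in TG, in 3 separate ranges. It rose in NG by 1.56 (SE 0.13, limma adjusted p = 3.2e-05), stood 8.85-fold lower in TG than in NG (-3.14, SE 0.13, limma adjusted p = 7.3e-07) and 3.01-fold lower in TG than in IG (-1.59, SE 0.13, limma adjusted p = 1.8e-04). Ciita, which encodes the class II transactivator, stood at 12.4 and 17.4 in IG, 50.5 and 63.9 in NG, and 7.24 and 13.7 in TG. It rose by 1.88 (SE 0.39, limma adjusted p = 0.00500) and fell in TG relative to NG by 2.39 (SE 0.39, limma adjusted p = 0.00108), with no difference called between TG and IG.

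The peptide-binding chains of H2-A and H2-E moved unequally. H2-Aa (chr17:34282744-34287823), the alpha chain of H2-A, stood at 25.6 and 25.5 in IG, 63.2 and 77.1 in NG, and 6.44 and 10.3 in TG. H2-Ab1 (chr17:34257689-34269419), its beta chain partner, stood at 92.1 and 75.4, 158 and 194, and 71.6 and 91.3. H2-Aa rose in NG by 1.42 (SE 0.32, limma adjusted p = 0.00832) and H2-Ab1 by 1.06 (SE 0.20, limma adjusted p = 0.00317). In TG relative to NG, H2-Aa fell by 2.95 (SE 0.32, limma adjusted p = 1.1e-04) and H2-Ab1 by 1.11 (SE 0.20, limma adjusted p = 0.00207). In TG relative to IG, H2-Aa was lower (-1.54, SE 0.32, limma adjusted p = 0.0194), whereas H2-Ab1 differed by -0.04 (SE 0.20, limma adjusted p = 0.949). The level of H2-Aa per H2-Ab1, per exonic kilobase, was 0.188 and 0.229 in IG, 0.270 and 0.269 in NG, and 0.0608 and 0.0761 in TG. The TG libraries lay under a value of 0.1 and the other 4 above it, a difference that was not tested. Neither gene overlaps another annotated gene, and at most 0.5% of their 50-base windows occur elsewhere. Both were counted against the reference haplotype of mm10. In outbred samples, a difference in haplotype between groups cannot be told apart from a difference in level.

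H2-Eb1, the beta chain of H2-E, stood at 85.2 and 130 in IG, 216 and 310 in NG, and 47.5 and 44.5 in TG. It rose by 1.29 (SE 0.25, limma adjusted p = 0.00349) and stood 5.71-fold lower in TG than in NG. H2-Ea-ps, the alpha chain gene of H2-E, is annotated as a polymorphic pseudogene because the reference strain carries a null allele. It was transcribed in these ICR samples, at 21.7 and 24.4 in IG, 110 and 90.4 in NG, and 12.9 and 14.8 in TG. Its rise in NG was 4.35-fold (2.07, SE 0.27, limma adjusted p = 4.1e-04). H2-Eb2, a second beta chain gene, had 0 to 3.87 normalised reads in IG and TG and 10.7 and 10.8 in NG.

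H2-DM removes the invariant chain fragment, and H2-DO restrains it. H2-DMa stood at 229 and 222 in IG, 344 and 409 in NG, and 137 and 139 in TG, in 3 separate ranges, and rose by 0.73 (SE 0.13, limma adjusted p = 0.00205). Brd2, on the opposite strand, overlaps 10.4% of the exonic bases of H2-DMa. The strand setting of the counting is not given, so the H2-DMa level, and ratios to it, may include reads of Brd2. The beta chain genes H2-DMb1 and H2-DMb2 share 22.7% and 21.2% of their 50-base windows with each other. H2-DMb1 stood at 51.1 and 32.5, 106 and 119, and 28.2 and 27.4, and H2-DMb2 at 46.4 and 44.1, 140 and 159, and 20.9 and 22.8. They rose by 1.44 (SE 0.27, limma adjusted p = 0.00275) and 1.70 (SE 0.21, limma adjusted p = 3.3e-04). H2-Ob, the beta chain of H2-DO, stood at 17.0 and 25.5 in IG, 45.7 and 39.8 in NG, and 8.05 and 7.99 in TG, with a rise of 1.00 (SE 0.34, limma adjusted p = 0.0457) and a level 5.33-fold lower in TG than in NG. Its partner H2-Oa stood at 9.29 and 6.96, 10.7 and 15.7, and 4.83 and 3.42, and fell in TG relative to NG (-1.46, SE 0.43, limma adjusted p = 0.0234) without a call in NG (0.63, SE 0.43, limma adjusted p = 0.307). An opposite-strand gene overlaps 22.8% of the exonic bases of H2-Oa, with the same limit as for H2-DMa.

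**Figure D4:**
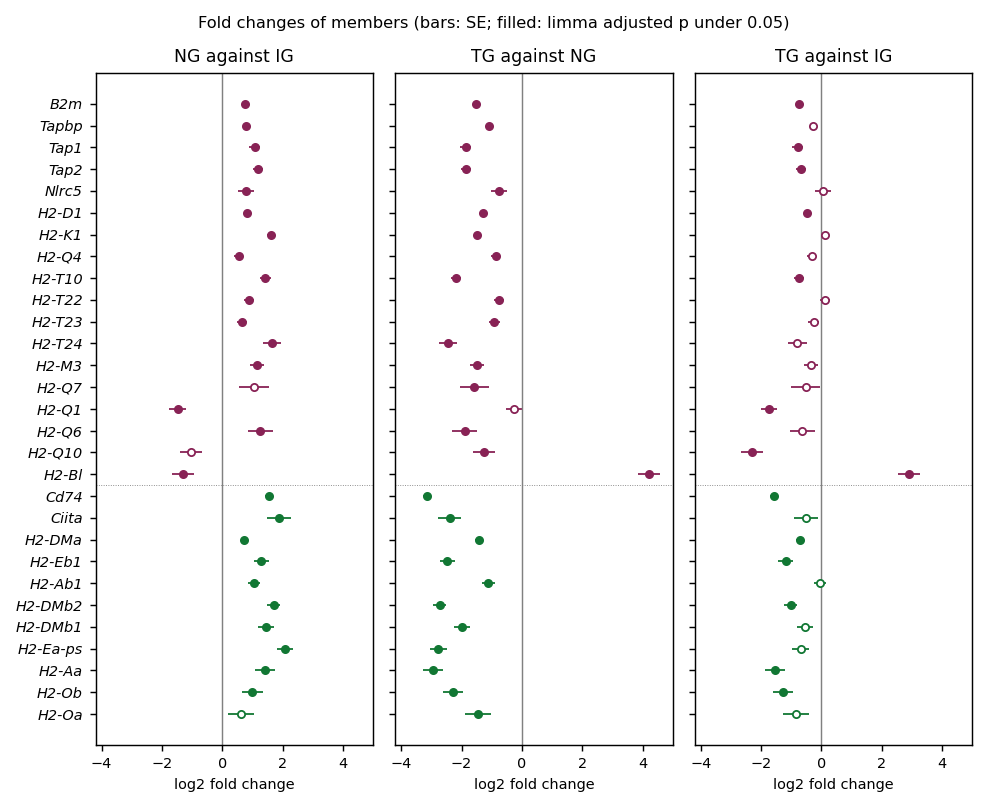
Log2 fold changes of class I genes (purple, above the dotted line) and class II genes (green) in the 3 comparisons, with the SE as horizontal bars. Filled points passed a limma adjusted p under 0.05; between TG and NG every class II gene drawn is filled and left of 0, and H2-Bl is at 4.22.

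TG and IG differed less, and their tissue makeup was not the same either, as given above. Of the 28 class I genes tested, 7 were lower and 1 was higher in TG, and of the 12 class II genes 6 were lower and 0 higher, beside 7.18% lower and 4.16% higher among all genes tested (11.3% called). At an unadjusted p under 0.05, for which the share over all genes is not given here, 7 class II genes were lower and 0 higher. The class II genes that fell were Cd74, H2-Aa, H2-Eb1, H2-DMa, H2-DMb2 and H2-Ob, and those on the class I side were B2m, Tap1, Tap2, H2-D1, H2-T10, H2-Q1 and H2-Q10. The estimate was below 0 for all 12 class II genes. The class medians were -0.33 and -0.77, beside 0.01 for all genes tested. In the authors' deposited table, lower and higher calls in TG numbered 10 and 1 of the 52 genes, beside 6.69% and 4.46% of all genes (11.1% called). These counts depend on the number of libraries. Leaving out any 1 library, also one of NG, left few or none of these genes called, as the closing section gives. With IG A or TG A left out, 10 of the 12 class II estimates stayed below 0 and 2 lay above it. With any other library left out, all 12 stayed below 0.

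Lists of immune cell markers differed in their order. Those of B cells, of border and tissue macrophages and of T and NK cells summed highest in NG and lowest in TG, and those of microglia, monocytes and dendritic cells did not. For monocytes this holds for the sum, which is mostly Fn1, and not for the other genes of the list, as given below. Counts of called genes in these short lists stand beside 40.1% of all genes called for NG against IG, 45.3% for TG against NG and 11.3% for TG against IG. The 7 B cell genes summed to 1328 and 1409 normalised reads in IG, 3445 and 3503 in NG, and 1030 and 1063 in TG. Of these, 7 of 7 rose in NG, 7 of 7 fell in TG relative to NG, and 6 were lower and 1 higher in TG than in IG. The higher gene was Ebf1, at 528 and 499, 1310 and 1256, and 751 and 771. Ebf1 made up most of the sum in TG, so the sum understates the fall of the 6 others from IG to TG. Cd79a, a subunit of the B cell receptor, stood at 273 and 325, 699 and 799, and 86.9 and 100. The level of Cd74 per Cd79a, both as normalised reads, was 1.66 and 1.63 in IG, 1.94 and 1.91 in NG, and 2.03 and 1.49 in TG. Cd74 per Csf1r, a microglia and macrophage gene, was 0.274 and 0.318, 0.922 and 1.07, and 0.117 and 0.0998. Cd74 per Ptprc, a gene of all leukocytes, was 1.30 and 1.49, 1.28 and 1.83, and 0.876 and 0.780. Cd74 per H2-DMa was 1.98 and 2.38, 3.94 and 3.74, and 1.29 and 1.07. A ratio to a gene of border macrophages was not taken. The 8 genes of border and tissue macrophages summed to 1205 and 1106, 5296 and 4849, and 861 and 812, with 8 of 8 higher in NG and 8 of 8 lower in TG than in NG. For T and NK cells the sums were 76.6 and 96.3, 499 and 447, and 45.9 and 66.2, with 7 of 8 higher in NG, and 8 of 8 lower in TG than in NG. Between TG and IG, limma called 0 of these 8, with 2 lower and 0 higher at an unadjusted p under 0.05 and 0 called in the authors' deposited table. The 5 monocyte genes summed to 9691 and 9109, 9516 and 8682, and 4174 and 3997, most of it Fn1, which fell in NG while the 4 others rose. All 5 were lower in TG than in NG, and all 5 were lower in TG than in IG by limma (4 in the authors' deposited table). Ly6c2, Ccr2, Chil3 and Plac8 each had the highest mean in NG and the lowest in TG. Ccr2, for example, had means of 89.4 in IG, 370 in NG and 42.4 in TG. The 8 dendritic cell genes summed to 354 to 379 in IG, 470 and 496 in NG, and 352 and 391 in TG, with 3 higher in NG. The 37.5% of that list called for NG against IG, and the 50% of the microglia list, are near the share of all genes. The 8 microglia genes went the other way, at 6659 and 6466 in IG, 4758 and 4655 in NG, and 6647 and 6345 in TG, with 0 higher and 4 lower in NG by limma (1 higher and 5 lower at an unadjusted p under 0.05, and 0 higher and 3 lower in the authors' deposited table). The 6 endothelial genes summed to 3170 and 3414, 5763 and 5966, and 3114 and 3257, with 5 higher in NG. Ptprc, which encodes the pan-leukocyte protein CD45, stood at 348 and 354, 1059 and 834, and 201 and 192. No gene of these lists was at 0 in all 6 libraries. The part of these cells in the levels of either class was not tested.

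**Figure D5:**
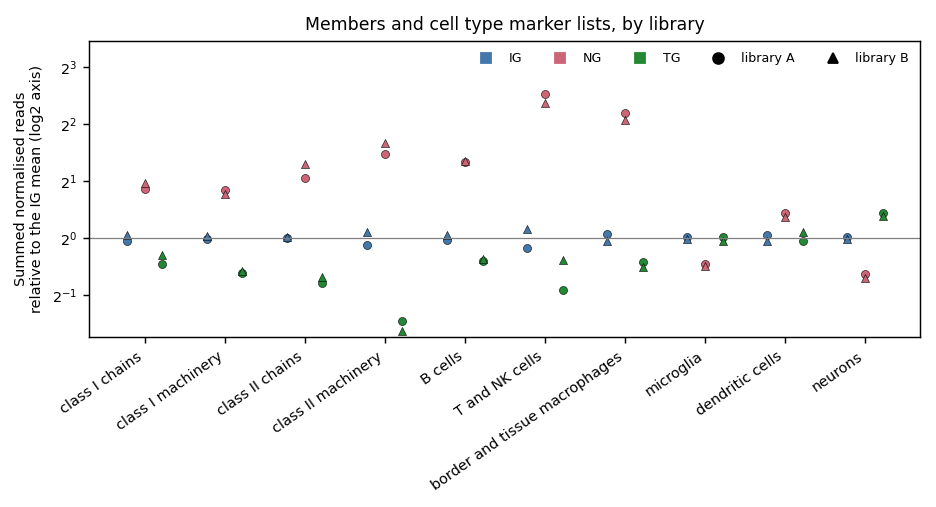
Summed normalised reads of the class I and class II genes and of cell type marker lists, relative to the IG mean (log2 axis, IG mean at 1). Each point is a library (circle A, triangle B); B cell, T and NK cell and macrophage lists are above 1 in NG and below 1 in TG, as are the class II genes, and the microglia and neuron lists are below 1 in NG.

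The genes that feed the class I pathway were divided. The lists are short, and their counts stand beside the 40.1% of all genes called for NG against IG, 45.3% for TG against NG and 11.3% for TG against IG. Of 6 genes of the immunoproteasome and its activator (median log2 fold change 1.07 for NG against IG), 5 rose in NG, 5 fell in TG relative to NG, and 2 were lower in TG than in IG. Psmb9 and Psmb8, its interferon-induced catalytic subunits, stood at 48.0 and 63.8 and at 72.0 and 73.1 in IG, at 294 and 293 and at 273 and 310 in NG, and at 34.6 and 38.8 and at 42.6 and 41.1 in TG. They rose in NG by 2.38 (SE 0.20, limma adjusted p = 3.8e-05) and 1.99 (SE 0.17, limma adjusted p = 3.7e-05). The activator subunit genes Psme2 and Psme1 rose by 1.15 and 0.99, and Psme3 did not pass the test in any comparison (-0.01 for NG against IG). Psmb9 lies on the strand opposite Tap1 and overlaps 3.9% of its exonic bases. Of 6 genes of peptide loading and trimming (median -0.24), 2 rose and 3 fell in NG. Sec61b, a translocon subunit gene, rose from 704 and 698 to 1685 and 1530 normalised reads, Tapbpl, a tapasin relative, rose by 0.75, and the chaperone genes Calr and Canx fell by 0.62 and 0.59. Of 6 class I-like molecules outside the H2 symbols (median 0.75), 4 rose and 1 fell. Those that rose were Cd1d1, which presents lipids, Mr1, which presents vitamin metabolites, Fcgrt, the neonatal Fc receptor, and Hfe, a regulator of iron uptake, with rises of 0.98, 0.84, 0.81 and 0.70. In TG relative to NG all 4 fell, Fcgrt by 1.74 and Hfe by 1.33. Azgp1, a secreted member, was the gene that fell, and stood at 111 and 125 in IG and at 0 to 2.41 in the other libraries, in the order of the liver list given above.

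Of 8 genes of class II processing and costimulation (median -0.07), 3 rose and 2 fell in NG. Ifi30, a lysosomal thiol reductase, rose by 0.84 and fell in TG relative to NG by 1.82, and the costimulatory genes Cd86 and Cd40 rose by 0.78 and 0.72. Lgmn, a lysosomal protease, fell by 0.76. Among 25 transactivator and interferon signal genes (median 0.19), 10 rose and 2 fell in NG, and in TG relative to NG 14 fell and 2 rose. The 48% of the list called for NG against IG is near the 40.1% of all genes. The calls in the list were mostly higher, whereas those of all genes were divided, at 19.7% higher and 20.4% lower. For TG against NG, 64% of the list was called, mostly lower, beside 22.2% of all genes higher and 23.1% lower. Iigp1, an interferon-induced GTPase gene, stood at 95.2 and 70.8 in IG, 249 and 181 in NG, and 20.1 and 25.1 in TG, and rose by 1.36. Irf8 and Socs1 rose by 1.27 and 1.13, and Gbp2, another interferon-induced GTPase gene, went the other way, with a fall of 1.57. Of the 6 genes of RFX and NF-Y, the DNA-binding partners of CIITA, Nfyb rose in NG by 0.44 (SE 0.09, limma adjusted p = 0.00462), and Rfx5, Rfxap, Rfxank, Nfya and Nfyc were not called, with estimates of -0.32 to 0.22. In TG relative to NG, Rfx5 and Rfxap rose by 0.55 and 0.36, Nfya and Nfyb fell by 0.56 and 0.41, and Rfxank and Nfyc were not called. Ifng and Ifnb1, the interferon genes themselves, had reads in 1 library each, both in TG, at 2.28 and 2.41 normalised reads, and none in IG or NG.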

How the data were processed

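Per the labels' protocols, total RNA was taken up in Trizol and a TruSeq RNA kit gave the libraries. The submitters' processing notes name Bowtie2 2.0.6, HTSeq 0.6.1 and mm10, with annotation and strand setting not given in the sources used here. In the 3 deposited tables, 1 per comparison, the read count columns are a signal that the authors normalised and averaged over a group. Per the file headers, the log2 fold change, p-value and adjusted p-value of each gene stand beside it.

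Since every group appears in 2 tables with different size factors, the reads of its 2 libraries could be solved for; 100% of 35275 genes came out whole within 0.001, and the procedure was tested on simulated data. The recovered reads were tested as planned for files of means. Median-of-ratios scaling used all 6 libraries, and limma 3.58.1 (R 4.3.3) was fitted to log2(normalised reads + 1), two-sided, with a trend on the mean level and 3 residual and 5.23 prior degrees of freedom. The pseudocount understates changes of low genes, for which counting error is large at this depth.

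Symbols and exonic lengths come from GENCODE M21 (34490 of 35275 identifiers) and promoters from RefSeq. The members and lists were chosen with earlier results of these data known. Values per library are given for the machinery, the main classical chains and members with a mean of at least 20 normalised reads (28 genes), and in the lists the 4 called genes with the largest change for NG against IG are named; other genes were named after their values were seen. Alternatives covered scaling, pseudocount, a filter on low values, trend, voom weights, the libraries fitted and each library left out.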

Additional observations from a re-analysis of the deposited data

How the results depend on the processing

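Under 14 alternatives, the log2 fold changes of the 28 genes with values per library kept their direction and their side of the threshold in 982 of 1176 cases. In 175 the call was lost, in 11 it was gained, and in 8 the sign changed, each time for a gene with no call between TG and IG. Scaling by total reads gave Nlrc5 -0.035 and voom weights -0.0062 in place of 0.04. With 1 library left out the same difference ranged from -0.14 to 0.20 for Nlrc5, from -0.015 to 0.26 for H2-K1, from -1.28 to 0.23 for H2-Q7, and from -0.21 to 0.13 for H2-Ab1. Without the trend, calls between TG and IG fell from 2779 to 1318 genes, from 8 to 5 class I genes and from 6 to 3 class II genes; the cause was not tested. Leaving out 1 library at a time gave 6252 to 7566 genes for NG against IG (9818 with all), 7776 to 9541 for TG against NG (11101) and 0 to 1012 for TG against IG, where limma called 0 without TG B and 4805 passed an unadjusted p under 0.05. Class I genes numbered 10 to 19 for NG against IG, 16 to 20 for TG against NG and 0 to 2 for TG against IG, and class II genes 4 to 8, 8 to 11 and 0 to 2. The lone library of a group is then assumed to vary like the other groups, and these fits have fewer degrees of freedom by construction. For NG against IG, 10 of 26 calls held under every alternative (H2-D1, H2-K1, H2-T10, H2-T22, B2m, Tap2, Tapbp, H2-DMb2, H2-Ea-ps and Cd74). For TG against NG 19 of 27 did, Cd74, H2-Aa and H2-Bl among them, and for TG against IG 0 of 14 did, although all 14 kept their direction. With all 6 libraries, the calls of H2-Bl, H2-Q4, H2-Q6, Nlrc5 and H2-Ob for NG against IG and of H2-Q7 for TG against NG were lost under some other setting. The median of all genes moved by less than 0.1 on the log2 scale under every scaling. No paired analysis was possible because the deposited columns are group means that carry no replicate numbers, so a replicate block could not be fitted. Depth limits the genes below about 20 normalised reads, and all intervals between libraries cover these 6 libraries only.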
